A study of Mus musculus with 2 samples.

Results

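The genes described here are 32 named long noncoding RNA genes of the mouse, chosen by symbol: 19 hosts of small nucleolar RNAs (snoRNAs), 4 hosts of microRNAs, the 2 nuclear RNAs Malat1 and Neat1, 4 neural RNAs and 3 others. Of the 32, 27 were measured, among 43346 Ensembl genes in the deposited tables: 24 were matched by gene symbol, Oip5os1 and Snhg16 by a RefSeq synonym, and Dancr by its transcripts. Snhg1, Snhg4, Snhg8, Sox2ot and Rmst were not analysed as members. A gene entry that held an Rmst transcript had 13 transcripts, of which 1 was from Rmst, so its 10.9 and 11.6 TPM were kept apart. Sox2ot had 1 entry, with an effective length of 0. TPM is an abundance scaled to a fixed total per library, a level corrected for transcript length.

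The tissue was the embryonic facial prominence, from which the face forms, of B6NCrl mice at embryonic day 10.5, and its RNA above 200 nt was sequenced. There was 1 group of 2 biological replicates and no treatment or mutant. Replicate 1 pooled 69 embryos and replicate 2 pooled 51, male and female together, so single embryos cannot be told apart. Each library started from 10 ng of RNA taken with the mirVana kit, with spike-in RNAs added, and the labels point to a SMARTer ultra low input kit.

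Many small RNAs are not transcribed alone but are cut out of a longer host RNA. SnoRNA hosts carry their snoRNAs in introns. Box C/D snoRNAs guide ribose methylation and box H/ACA snoRNAs guide pseudouridylation of ribosomal RNA, while the spliced exons of several hosts, such as Gas5, are known substrates of nonsense-mediated decay. MicroRNA hosts carry hairpins that are cut out and trimmed to mature microRNAs, which find targets mainly through their seed. Malat1 localises to nuclear speckles and Neat1 is the scaffold of paraspeckles.

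A few of the small RNAs annotated inside the hosts are printed here, since they are what makes these genes hosts. In 3 snoRNAs of Zfas1, 2 of Snhg5 and 1 each of Gas5 and Snhg6, the C box letters TGATGA in the first 20 bases and the D box letters CTGA in the last 15 bases are in capitals (given strand only, GENCODE M21 transcripts on GRCm38). They lie at chr2:167063473-167063565, chr2:167064998-167065086 and chr2:167065276-167065365 on the plus strand (Zfas1), chr9:88521529-88521600 and chr9:88521797-88521868 on the minus strand (Snhg5), chr1:161038082-161038158 on the plus strand (Gas5) and chr1:9942463-9942549 on the minus strand (Snhg6).
Gm25878: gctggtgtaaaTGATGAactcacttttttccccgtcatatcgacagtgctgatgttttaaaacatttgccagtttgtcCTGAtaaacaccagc
Gm23201: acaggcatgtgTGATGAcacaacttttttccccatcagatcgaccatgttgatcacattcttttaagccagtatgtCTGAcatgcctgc
Snord12: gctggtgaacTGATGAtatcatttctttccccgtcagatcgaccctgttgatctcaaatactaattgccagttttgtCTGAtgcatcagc
Snord50a: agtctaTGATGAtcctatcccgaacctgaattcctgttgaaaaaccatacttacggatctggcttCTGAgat
Snord50b: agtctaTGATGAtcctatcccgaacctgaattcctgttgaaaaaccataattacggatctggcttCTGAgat
Snord47: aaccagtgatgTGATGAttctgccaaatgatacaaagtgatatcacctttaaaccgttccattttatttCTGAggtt
Snord87: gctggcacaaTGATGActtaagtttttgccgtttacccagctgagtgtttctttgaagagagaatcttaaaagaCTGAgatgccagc

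Both boxes were found in 189 of 208 snoRNA genes inside Snhg14 and in 21 of 46 annotated entries (44 loci) inside the other hosts. Over all 1558 annotated snoRNA and scaRNA transcripts they were found in 310 (19.9%). That total includes the 254 entries of these hosts, so it is not a separate background. Snhg14 is the long host from which tandem arrays of C/D snoRNAs are cut. All 208 lie outside Snhg14-209, the annotated transcript with the highest share of Snhg14 TPM in these libraries. The letters ACA ahead of the last 3 bases, as in box H/ACA snoRNAs, ended 11 of the 46 (23.9%), among them Snora73a and Snora73b of Snhg3. These letters were counted only in entries without both boxes, and ended 0 of the 208 in Snhg14 and 19.1% of the same 1558. A match is a description of the letters and not of a function.

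MicroRNA hosts differ in how many mature microRNAs share a seed, bases 2 to 8, which is in capitals (RefSeq, GRCm38.p6). Mir17hg holds 11 mature microRNAs from 6 hairpins, and 4 of them fall into 2 pairs of shared seed, miR-17-5p with miR-20a-5p and miR-19a-3p with miR-19b-3p. Dleu2 holds 4 from 2 hairpins, of which miR-15a-5p and miR-16-5p share a seed. Mir99ahg holds 6 from 3 hairpins with no seed in common.
mmu-miR-17-5p: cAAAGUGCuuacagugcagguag
mmu-miR-20a-5p: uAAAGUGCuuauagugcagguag
mmu-miR-18a-5p: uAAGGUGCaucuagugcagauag
mmu-miR-19a-3p: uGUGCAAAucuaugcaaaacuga
mmu-miR-19b-3p: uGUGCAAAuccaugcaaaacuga
mmu-miR-92a-3p: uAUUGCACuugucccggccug
mmu-miR-15a-5p: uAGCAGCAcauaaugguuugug
mmu-miR-16-5p: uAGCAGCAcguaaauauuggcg
mmu-miR-99a-5p: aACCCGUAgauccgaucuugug
mmu-let-7c-5p: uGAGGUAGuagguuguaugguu
mmu-miR-125b-5p: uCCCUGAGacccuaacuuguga

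Gene counts came to 40059176 in replicate 1 and 39531700 in replicate 2. All 8 facial mesenchyme markers fixed for the check (Msx1 and Prrx1 among them) were detected, and so were 2 of 4 liver markers, at low levels: Ttr at 4.72 and 5.08 TPM and Apoa1 at 1.17 and 1.18 TPM. Afp had 6 and 57 counts and Alb had 0 counts. All 7 neuron markers were detected too, at a summed 504 and 518 TPM. Of 8 markers of neural tube progenitors, 5 were detected, and the 8 summed to 228 and 305 TPM. Sox1, Sox3 and En2 did not reach 1 TPM in both libraries. In bulk tissue, fewer cells of a type and less RNA per cell cannot be told apart.

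All 27 measured members reached 1 TPM in both libraries. The same held for 12.2% of 6854 lncRNA genes, 33.2% of 42463 named genes and 58.2% of 21474 protein coding genes. The median over the 27 was 39.9 TPM, against 2.78 TPM over detected lncRNA genes and 20.1 TPM over detected protein coding genes. Since the list names well known genes, this describes the list and singles nothing out. Together the members held 0.237% of gene counts in replicate 1 (exact Clopper-Pearson 95% interval 0.236% to 0.239%) and 0.233% in replicate 2 (0.232% to 0.235%), intervals that cover counting error only. Levels below are given as replicate 1 and replicate 2, and each SD has n = 2.

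By class, snoRNA hosts had a median of 44.8 TPM (44.0 and 46.1 in the libraries) and ranged from 7.21 to 533 TPM. MicroRNA hosts had a median of 21.1 TPM and ranged from 5.28 to 35.4 TPM. The 3 other lncRNAs had a median of 57.6 TPM, and the neural and nuclear classes hold 2 measured genes each and are given gene by gene.

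**Figure D1:**
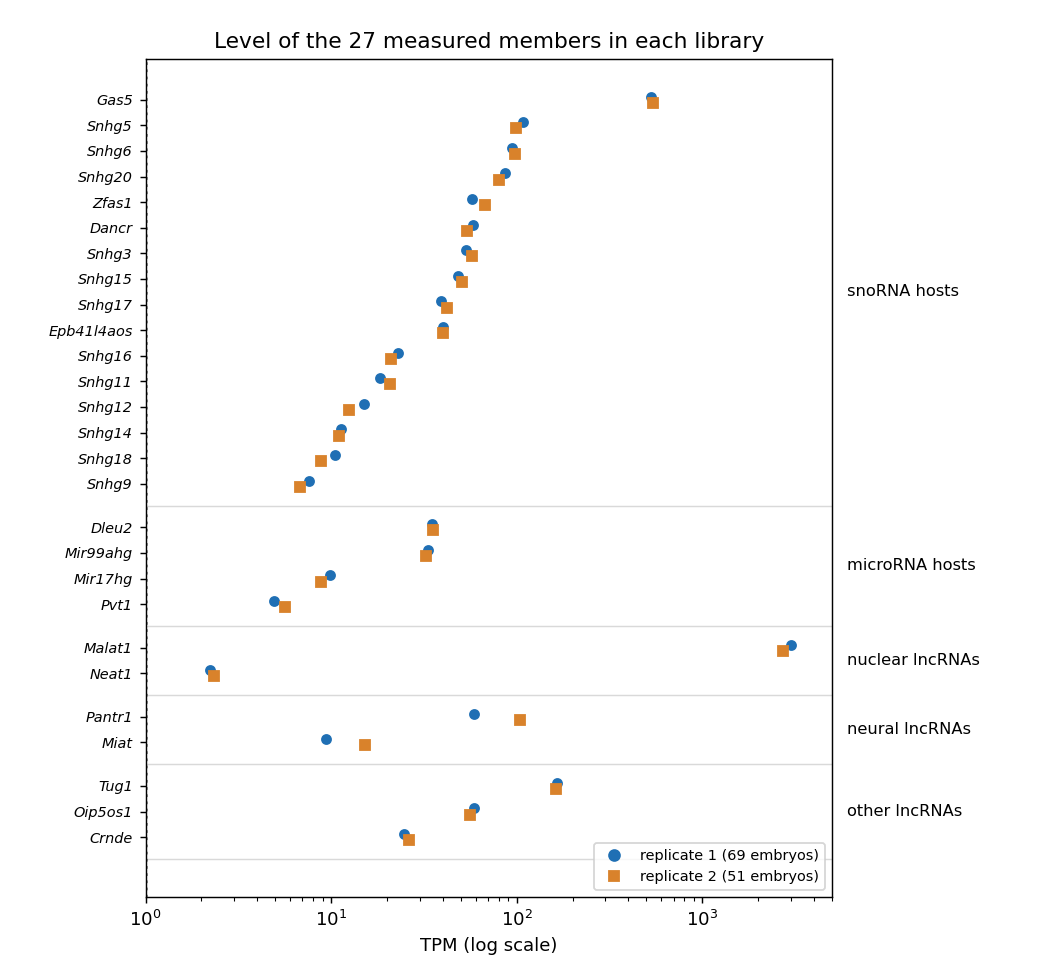
TPM on a log axis for each measured member, with a circle for replicate 1 and a square for replicate 2, grouped by class. The symbols of a gene nearly coincide for most members and stand apart for Pantr1 (58.5 and 104 TPM) and Miat (9.38 and 15.1 TPM).

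Gas5 (ENSMUSG00000053332, chr1:161034422-161038539, plus strand), host of snoRNAs at 9 loci, stood at 527 and 540.0 TPM and was the highest snoRNA host. Its mean of 533 ± 9.36 TPM (SD) lay above that of 98.2% of detected protein coding genes. Snhg5, host of Snord50a and Snord50b, followed at 108 and 98.7 TPM, and Snhg6, host of Snord87, at 94.5 and 98.5 TPM. Snhg20, which carries the scaRNA Gm26083, stood at 86.3 and 80.6 TPM. None of these 4 hosts was 1.5-fold apart between the libraries.

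A middle group of hosts lay close together. Zfas1, whose snoRNAs are printed above, stood at 57.1 and 67.6 TPM, and Dancr, which carries Snora26, at 58.4 and 54.1 TPM. Snhg3, host of Snora73a and Snora73b, had 53.4 and 57.2 TPM. On its opposite strand, the exons of Gm17300 cover 71.5% of Snhg3 exon bases, and 13.7% are shared with Rcc1 on the same strand. No source used here states whether strand entered the counting, and reads of overlapping genes cannot be told apart.

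Snhg15, host of Snora9, stood at 48.0 and 50.4 TPM, Snhg17 at 38.9 and 41.9 TPM and Epb41l4aos at 39.9 and 40.0 TPM. Below them came Snhg16, which carries the Snord1 genes, at 22.8 and 21 TPM, and Snhg11 at 18.4 and 20.8 TPM. Snhg11 is annotated as protein coding in GENCODE M21. The lowest hosts were Snhg12 at 14.98 and 12.5 TPM, Snhg14 at 11.3 and 11.0 TPM, Snhg18 at 10.5 and 8.81 TPM and Snhg9 at 7.64 and 6.78 TPM. The Snhg9 values rest on 17 and 15 counts over an effective length of 84 bases.

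Exons of St6galnac2 on the opposite strand cover 17.9% of Snhg16 exon bases, and those of Mcmdc2 cover 11.1% of Snhg6. Snhg14 shares 6.91% of its exon bases with Ube3a, the imprinted ubiquitin ligase gene that it runs antisense to. The part of these neighbours in the levels was not tested.

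Among microRNA hosts, Dleu2 (35.2 and 35.6 TPM) and Mir99ahg (33.4 and 32.5 TPM) stood well above Mir17hg (9.85 and 8.77 TPM) in both libraries. Most of the Dleu2 level was on Dleu2-215, a single-exon transcript with on average 73.1% of its TPM and 89.7% of its counts. Mir15a lies outside Dleu2-215, and Mir16-1 overlaps Dleu2 exons by 13 bases. The 3 Mir99ahg hairpins lie outside its leading transcript, Mir99ahg-202. Mir17hg, host of the miR-17 to miR-92a cluster printed above, spans chr14:115042879-115046727 on the plus strand. Its 6 hairpins lie in exons of its single transcript. The deposited counts for all 6 were 0, but 5 have an effective length of 0 and Mir20a one of 8 bases, so these zeros are not a measurement of the microRNAs. Pvt1, a long gene beside Myc, was the lowest of the 4 at 4.94 and 5.62 TPM. No mature microRNA of the RefSeq table fell within Pvt1 on its strand, so its place among microRNA hosts comes from the list alone.

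The 2 nuclear RNAs stood at the ends of the order. Malat1 (chr19:5795690-5802672, minus strand) had 2999.9 and 2708.3 TPM and Neat1 (chr19:5824708-5845478, minus strand) 2.21 and 2.35 TPM. Malat1 ranked 1st by TPM among lncRNA genes and 3rd by count. Of its TPM, 99.4% in each library was assigned to Malat1-203, a 485-base spliced transcript at the 5′ end, which also took 90.3% and 90.8% of its counts. The full-length Malat1-201, of 6983 bases, took 3279 and 2786 counts, or 17.97 and 15.4 TPM.

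With all counts of the gene set over the effective length of Malat1-201, the level was 185 and 166 TPM, with a mean of 176 ± 13.3 TPM (SD). That is 16.2 times below the deposited value. The deposited levels of Gas5 (533 TPM) and Tug1 (164 TPM) were not recomputed in this way, so they are an unlike measure. This alternative was chosen after seeing the data. Gm37376, on the opposite strand at chr19:5801941-5802393, overlaps the same 5′ part over 453 bases and had 12504 and 10995 counts, and its part in the Malat1-203 value was not tested. The first place of Malat1 by TPM therefore holds for the deposited transcript assignment. Its place with every gene set over its longest transcript was not computed.

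Neat1 counts split the other way. Neat1-202, of 3004 bases, held 71.1% and 84.1% of the TPM of the gene, and the 20771-base Neat1-201 held 19.9% and 15.9%. By counts, Neat1-201 held 65.7% and 57.3%. The long transcript is the one known to build paraspeckles. Both measures refer to 367 and 354 counts in all.

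**Figure D2:**
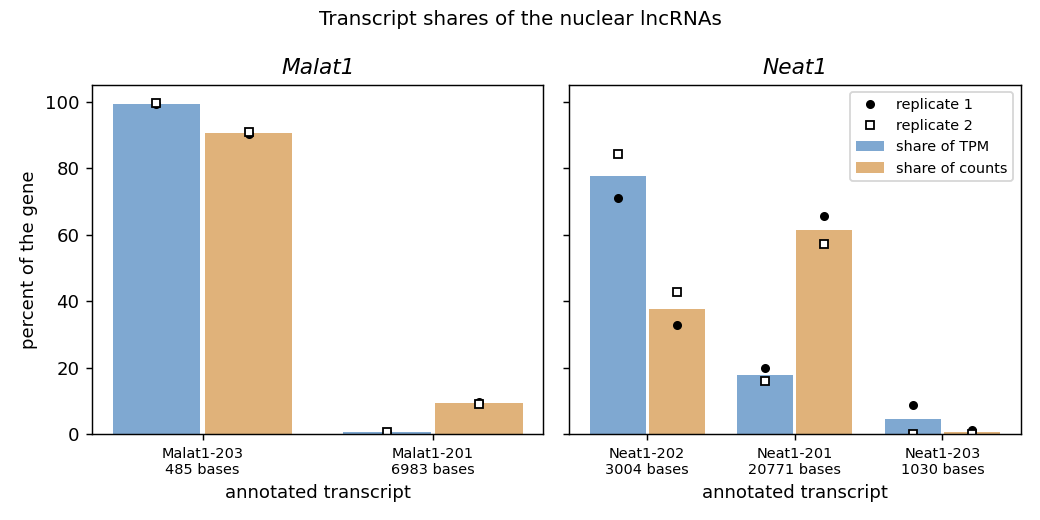
Percent of each gene assigned to its annotated transcripts, as share of TPM and as share of counts, with bars at the mean and symbols for the libraries. Malat1-203 leads Malat1 on both measures (99.4% of TPM), while Neat1-202 leads Neat1 by TPM (77.6% on average) and Neat1-201 by counts.

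Of the neural RNAs, Pantr1 (chr1:42590782-42694842, minus strand), which lies head to head with the neural transcription factor gene Pou3f3, stood at 58.5 and 104 TPM. Miat, known from neurons and retina, stood at 9.38 and 15.1 TPM. Both were higher in replicate 2. Among the others, Tug1 stood at 165 and 162 TPM, Oip5os1 at 59.0 and 56.1 TPM and Crnde at 24.7 and 26.1 TPM.

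Each library's own level was then compared. After TMM scaling, a trimmed-mean scaling of library sizes, 26 members had a mean count of at least 50, and 1 of them, Pantr1, was at least 1.5-fold apart. The background was 4.65% of 14036 genes, of which 1.95% were higher in replicate 2 and 2.7% in replicate 1, and 1 of 26 is near it. Pantr1 had 718 counts in replicate 1 and 1379 in replicate 2, a log2 ratio of 0.98. With 1 library a side, no test was possible.

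Most Pantr1 counts lay on 3 transcripts, and all 3 were higher in replicate 2, while the fourth, Pantr1-206, was lower there (98.7 and 76.8 counts). Pantr1-209 had 348 and 457 counts, Pantr1-212 had 133 and 340, and Pantr1-207 had 89.8 and 452. Beside this, 3 of 7 neural tube progenitor markers were at least 1.5-fold higher in replicate 2: Hes5 by 0.82, Pax6 by 0.81 and Sox3 by 0.89 on the log2 scale. Sox3 was low, at 0.69 and 1.29 TPM. Sox2 (0.40), Nes (0.39), Sox1 (0.10) and Fabp7 (0.05), the highest of the list, were not past the fold. The marker En2 was nearly at 0, with 1 and 4 counts. None of 7 neuron markers was past the fold, and 1 of 8 mesenchyme markers, Alx1, was higher in replicate 1. Their part in the Pantr1 ratio was not tested.

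Miat (log2 0.37), Pvt1 (0.39) and Snhg12 (-0.29) came next and did not reach 1.5-fold. By TPM, an alternative added after seeing the data, 2 members were past the fold, beside 5.03% of the same genes: Pantr1 (1.78-fold) and Miat (1.61-fold). The effective length deposited for Miat was 7017 bases in replicate 1 and 5513 in replicate 2, so its call depends on the measure. The median absolute log2 ratio was 0.10 over members, 0.09 over all 14036 genes and 0.17 over 747 lncRNA genes.

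**Figure D3:**
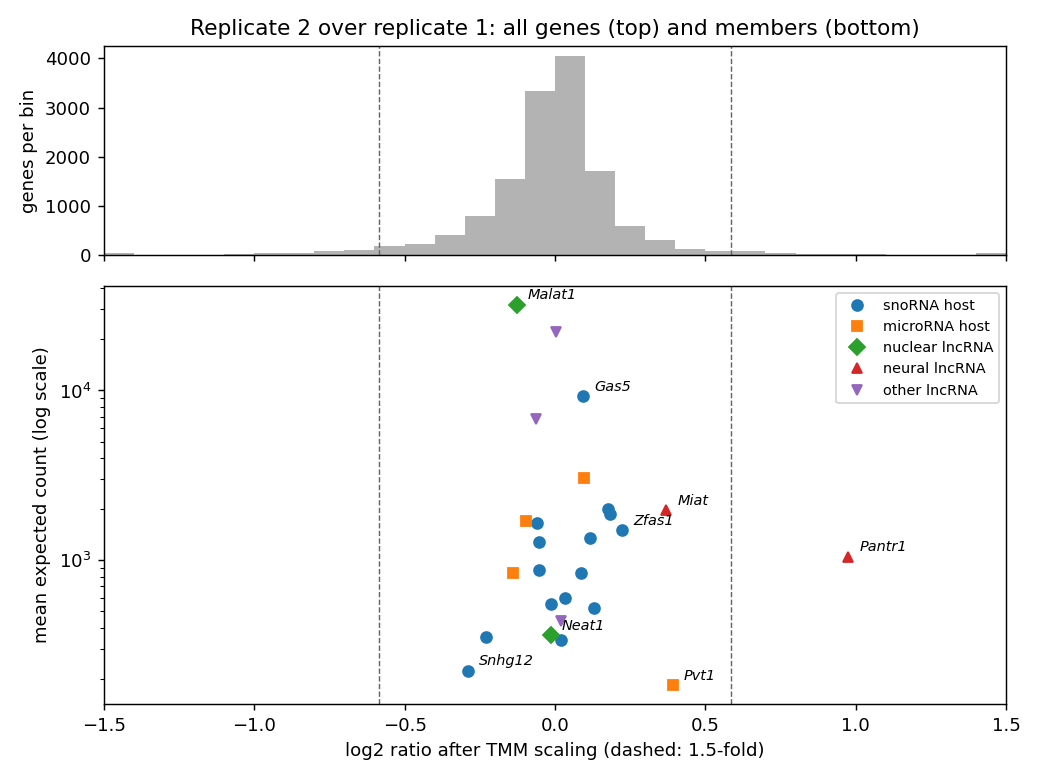
Top, number of genes in each bin of the log2 ratio of replicate 2 over replicate 1, with genes beyond the axis put in the end bins. Bottom, the 26 members by the same ratio and their mean expected count on a log axis, where Pantr1 alone lies outside the dashed 1.5-fold lines.

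In the order of levels, 9 of 26 steps from one member to the next differed beyond the spread. The same count was not made for other sets of genes, so it describes this list only. The spread was that of the 200 genes nearest in level, on log2(TPM + 0.1), and a step was taken to differ when the 95% interval did not span 0 and its sign held in each library. Among them, Malat1 stood 2.42 above Gas5 (95% interval 2.30 to 2.54), Gas5 1.70 above Tug1 (1.58 to 1.83) and Tug1 0.67 above Snhg5 (0.53 to 0.80). The step from Malat1 to Gas5 depends on the Malat1 transcript assignment, since Malat1 had 176 TPM in the full-length calculation given above. Gas5 was not recomputed over its longest transcript, so the order of the 2 genes on that measure is not given. At the bottom, Pvt1 stood 1.17 above Neat1 (0.47 to 1.88). Zfas1, Oip5os1, Dancr, Snhg3 and Snhg15 formed a run in which no neighbours differed, as did Snhg12, Miat, Snhg14, Snhg18, Mir17hg, Snhg9 and Pvt1. Snhg20 and Pantr1 did not differ on average, with Snhg20 higher in replicate 1 and Pantr1 in replicate 2.

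Of 29 fixed pairs of a member with a gene near it, 24 could be compared, 4 had no value and 1 lay farther than 500 kb apart. The partner was not always the nearest gene, and gaps ran from 0 kb where genes overlap to 119.5 kb for Mir99ahg and Usp25. In 1 of the 24, Snhg18 with Tas2r119, the neighbour had 0 counts in both libraries, so this pair is left out here. In 22 of the other 23 pairs the members and neighbours differed beyond the same spread, with the member higher in 15 and lower in 7. How many other gene pairs differ in this way was not computed, so these counts describe the listed pairs only. Several members exceeded a neighbour on the opposite strand that overlaps them or starts close by. Pantr1 stood 12.8-fold above Pou3f3 (6.34 and 5.68 TPM), with log2 differences of 3.19 and 4.17 in the libraries, both outside the pooled interval of 3.39 to 3.97. Gas5 stood 112-fold above Zbtb37 (4.72 and 4.64 TPM), Zfas1 10.9-fold above Znfx1 (5.89 and 5.34 TPM) and Crnde 3.01-fold above the homeobox gene Irx5 (8.14 and 8.65 TPM).

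The member was also higher for Tug1 over Morc2a (log2 1.89), Epb41l4aos over Epb41l4a (1.85), Dleu2 over Trim13 (1.54) and Oip5os1 over the centromere gene Oip5 (0.72). Mir17hg stood 2.76 above Gpc5, Mir99ahg 0.98 above Usp25, Snhg20 0.96 above Sec14l1 and Dancr 0.72 above Usp46. Miat exceeded the crystallin gene Cryba4, at 0.58 and 0.29 TPM, by 4.54, and Snhg6 exceeded Tcf24, at 0.27 and 0.06 TPM, by 8.63.

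Other members were below their neighbour. Pvt1 stood 3.39 log2 units below Myc (55.0 and 57.5 TPM) and Snhg14 1.62 below Ube3a (33.5 and 35.4 TPM). Snhg9 was 7.66 below the ribosomal protein gene Rps2, which has 14 exon bases in common with it on the opposite strand. Snhg12 was below Trnau1ap (log2 difference -2.35), Snhg3 below the chromatin gene Rcc1 (-1.33) and Snhg15 below Ccm2 (-0.93). Neat1 was below Malat1 (-10.23), a value that depends on the Malat1 transcript assignment given above. Snhg17 stood 1.04 above its fellow member Snhg11. Snhg5 (108 and 98.7 TPM) and Syncrip (112 and 111 TPM) did not differ, with an interval from -0.25 to 0.03.

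**Figure D4:**
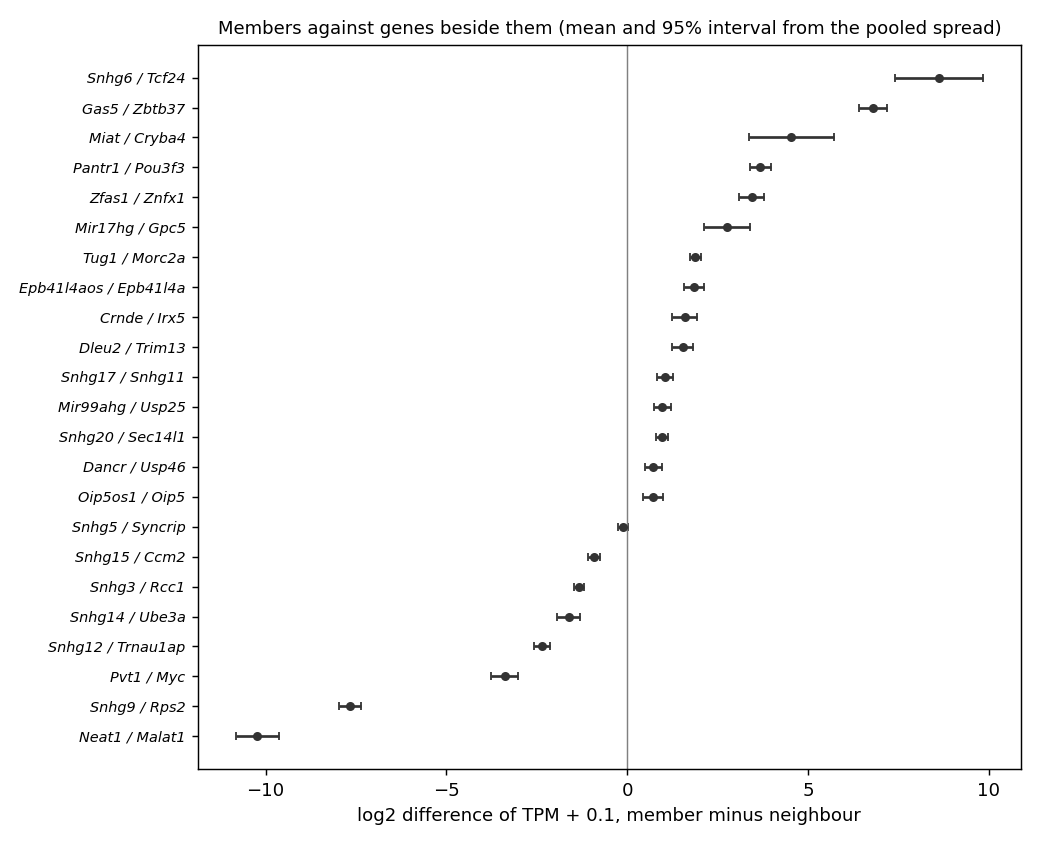
Log2 difference of TPM + 0.1 between a member and the nearby gene paired with it, with the 95% interval from the pooled spread, for the pairs in which both genes had counts. Points to the right of 0 are pairs with the member higher, and the interval of Snhg5 and Syncrip spans 0.

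The transcripts behind these levels were also examined. Of 23 members with at least 2 transcripts and 5 TPM, 19 had the same leading transcript in each library. It differed in Pvt1, Snhg15, Snhg16 and Snhg17, beside a background of 6.15% of 7753 genes. In Snhg15, for example, Snhg15-204 held 38.8% and 32.9% and Snhg15-201 held 24.4% and 34.7%. Among the 4, the mean share of the leading transcript was 22.8% for Pvt1-208, 35.8% for Snhg15-204, 28.4% for Snhg16-204 and 20.3% for Snhg17-201.

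In other members 1 transcript dominated by share of TPM. It held 94.6% of Snhg20 (Snhg20-202), 93.8% of Epb41l4aos (Epb41l4aos-201), 84.8% of Dancr (Dancr-203), 75.0% of Snhg3 (Snhg3-204), 73.1% of Dleu2 (Dleu2-215) and 68.3% of Miat (Miat-201). Mir17hg, Snhg9 and Snhg18 had 1 transcript each. The leading share was 57.2% in Snhg11 (Snhg11-201), 56.5% in Tug1 (Tug1-203), 54.2% in Oip5os1 (Oip5os1-201), 52.1% in Snhg14 (Snhg14-209) and 42.5% in Snhg6 (Snhg6-205). It was 37.9% in Pantr1 (Pantr1-209), 36.1% in both Mir99ahg (Mir99ahg-202) and Snhg12 (Snhg12-206), and 35.5% in Crnde (Crnde-202). In Gas5, with 25 transcripts, Gas5-210 held 25.9% and 23.8%, Gas5-224 held 18.8% and 17.3% and the retained-intron transcript Gas5-213 held 10.1% and 10.2%.

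By counts, which weigh long transcripts more, another transcript led in 9 of 24 members with at least 2 transcripts: Gas5, Neat1, Oip5os1, Pvt1, Snhg12, Snhg14, Snhg16, Snhg17 and Zfas1. In Oip5os1 the 8300-base Oip5os1-202 held 84.4% of counts and Oip5os1-201 held 15.6%. In Snhg14 the difference was smaller, with 45.7% of counts on Snhg14-213 and 38.5% on Snhg14-209. By counts the leading transcript was the same in both libraries in 23 of 23 members, also in the 4 where it differed by TPM. These shares were added after seeing the data. No share over all genes is given beside the counts of 9 and 23 members, so they describe this list only.

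SnoRNA hosts release snoRNAs from introns, and 8 members have transcripts annotated as retaining one. The share of TPM in such transcripts was 59.4% and 66.0% in Snhg5, 57.2% and 59.3% in Zfas1 and 54.5% and 58.1% in Gas5. In these 3 hosts, transcripts not annotated as retained intron held the smaller part of the TPM in each library. The share was 22.4% and 21.5% in Mir99ahg, 19.7% and 22.2% in Snhg17, 12.2% and 22.3% in Snhg11, 14.5% and 14.8% in Dancr and 7.08% and 6.87% in Snhg16. Over the 7 snoRNA hosts the median was 20.97%, against 33.0% over 55 lncRNA genes and 9.39% over 5204 protein coding genes that have such transcripts and reach 1 TPM. As a share of counts, a measure added after seeing the data, the mean was 74.4% in Snhg5, 70.8% in Zfas1 and 71.2% in Gas5, and the median of the 7 hosts was 43.4%. The leading transcript of Snhg5, Snhg5-204 at 25.9%, was itself of this kind. The leading one of Zfas1, at 41.6%, was ENSMUST00000125674, which has no M21 name or type. It was not counted as retained intron, so the Zfas1 shares leave its type open.

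**Figure D5:**
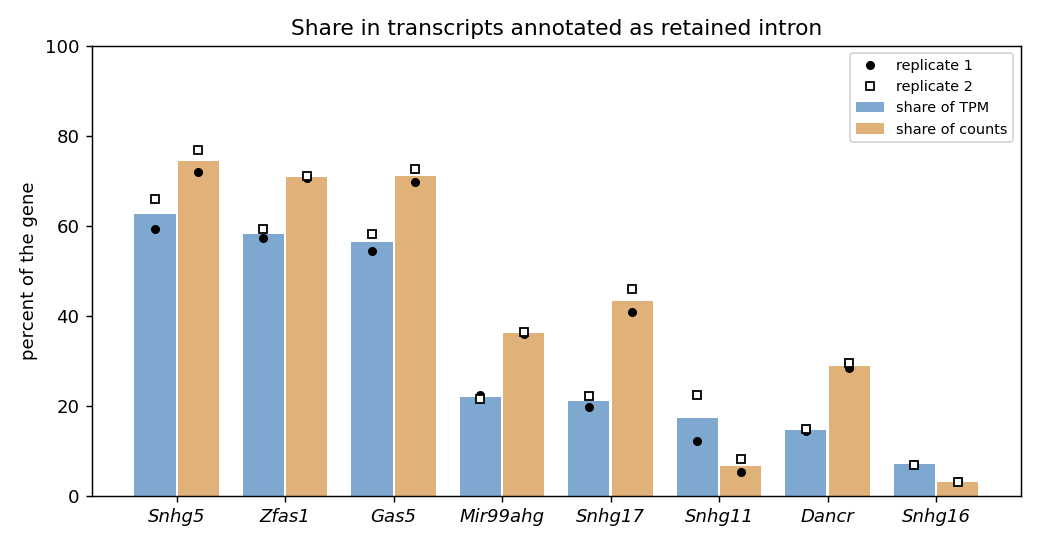
Percent of each gene in transcripts annotated as retained intron, by TPM and by counts, with bars at the mean and symbols for the libraries. Snhg5, Zfas1 and Gas5 are above 50% on both measures, and the other 5 members are below 50%.

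The snoRNAs themselves were mostly out of reach. Within measured hosts other than Snhg14, 37 annotated snoRNA and scaRNA genes at 35 separate loci lie on the host's strand, from 60 to 205 bases long. Of these, 35 lie in an intron of the host's leading annotated transcript and 1, Snord50a of Snhg5, in an exon of a retained-intron transcript, while 29 overlap an exon of some annotated transcript of the host. The RNA had been selected above 200 nt. Of the 37 genes, 35 had an entry in the deposited data, where effective length is the entry's length minus 99 bases. It was above 0 in 15 of these 35 entries, and 5 had at least 1 count in both libraries. The highest, Snora73b of Snhg3, had 34.3 and 26.2 counts, and the Snhg20 scaRNA Gm26083 had 11.1 and 9.58. These counts describe fragments of short entries and are not compared with the hosts.

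Genes that act with these RNAs were given from fixed lists. All 12 core and assembly proteins of snoRNA particles were detected, with a median of 189 TPM. The box C/D proteins Nop56 (397 and 403 TPM), Snu13 (331 and 335 TPM) and Nop58 (270 and 265 TPM) were highest and the H/ACA assembly factor Naf1 (2.82 and 3.33 TPM) lowest. All 10 factors of nonsense-mediated decay were detected, with a median of 19.9 TPM. Smg5 stood at 71.7 and 72.5 TPM and Upf3a at 45.4 and 41.2 TPM, and Upf2 (8.94 and 9.84 TPM) was lowest.

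All 8 paraspeckle proteins were detected, with a median of 214 TPM, while their scaffold Neat1 stood at 2.21 and 2.35 TPM. Hnrnpk (1909 and 1906 TPM), Nono (546 and 549 TPM) and Tardbp (379 and 379 TPM) were highest and Pspc1 (41.9 and 42.2 TPM) lowest. No gene of these 3 lists was 1.5-fold apart between the libraries.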

How the data were processed

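Total RNA above 200 nt from 2 pools of facial prominence was measured. Expected counts per gene and transcript were estimated and deposited by the authors, not normalized. TPM values, also as a posterior mean, were deposited by the authors, scaled within each library. Transcript shares within a gene were deposited by the authors as a percent. Credibility bounds of TPM (signal values) were deposited by the authors and are not printed. Per the accompanying notes deposited with the files, reads were placed on mm10 with GENCODE M4, and the aligner, the quantifier, their versions and strand use are not given in the sources used here. Names and coordinates came from GENCODE M21 on GRCm38, the same assembly, by gene identifier. The 883 genes without a name stayed out of the comparisons.

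Library factors were computed with edgeR 4.0.16 (TMM) and DESeq2 1.42.0 (alternative) in R 4.3.3 from rounded expected counts, over the 17567 genes whose mean count reached 10. Ratios used a prior count of 2 and a mean count of at least 50. Level differences used log2(TPM + 0.1) with an SD between replicates taken from the 200 genes of closest level, and 95% intervals of 1.96 standard errors, a spread that leaves out errors particular to a gene. These computations were tested on simulated data. The series has 1 group and so no contrast, and the labels name the replicates as biological pools.

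Members and lists were chosen with earlier results of these data known. Named in the text are all members, their leading transcripts, transcripts of at least 10% share for chosen genes, both genes of each pair and the highest 3 and lowest 1 of each list. The result of 1 gene that this rule took is not reported here. The Pantr1 and Snhg15 transcripts, those leading by counts, overlapping genes, single snoRNAs and single markers were named after their values were seen. Alternatives changed the detection threshold, estimate, scaling, filter, fold, pseudocount and spread, and left out each library.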

Additional observations from a re-analysis of the deposited data

How the results depend on the processing

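Detection of all 27 members held at 0.5 TPM, with posterior mean TPM, with TPM over Ensembl genes only and without either replicate, and 25 passed at 5 TPM. With TPM recomputed over Ensembl genes only, the class medians were 48.9 TPM for snoRNA hosts, 23.1 for microRNA hosts, 1559 for nuclear RNAs (1428 as deposited) and 62.8 for the other lncRNAs. At a 2-fold threshold 0 members were apart between the libraries, in place of 1. By the ratio of TPM in place of counts, also chosen after seeing the data, 2 were 1.5-fold apart. Spike-in scaling shifted all log2 ratios by -0.21 and gave Pantr1 0.76. As shares of counts, chosen after seeing the data, the median retained-intron share of snoRNA hosts was 43.4%, in place of 20.97%. At least 10 counts in both libraries left 1 snoRNA gene, in place of 6 over all hosts. Malat1 over its full length, also chosen afterwards, was at 176 TPM. Posterior mean TPM made Snhg5 and Syncrip differ (-0.14, interval -0.28 to -0.01). With the posterior mean share, Zfas1 joined the members whose leading transcript differed between libraries, leaving 18. No paired analysis was possible because the series has 1 group. A pair of pools leaves the spread between embryos unmeasured, and TPM of genes with few counts, such as Snhg9, is least precise.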
